A study of Mus musculus with 703 samples.

Results

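The 10 genes described here carry or restrain the insulin signal in muscle: Insr, Irs1, Irs2, Pik3r1, Akt2, Tbc1d1, Tbc1d4, Grb14, Ptpn1 and Trib1. They were taken by gene symbol from a table of 19088 genes, each symbol matched 1 row, and all 10 passed the filter on low counts in every comparison. Their RNA was measured in gastrocnemius, a calf muscle, of 703 mice, with 1 library per mouse.

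The mice were F1 offspring of crosses between inbred Collaborative Cross lines, whose genomes are mosaics of a fixed set of founder strains, so that animals of 1 cross share a genotype. There were 20 such strains made from 19 parental lines, although the genotype label of every animal reads only Outbred. Females and males ate a diet with 10% or 44% of energy as fat, both with fiber, from 6 weeks of age, and part of the older animals drank metformin, a drug given in type 2 diabetes, at 5 mg/mL in water from 7 months of age. The 469 untreated animals were 236 females and 233 males, of which 234 ate 10% and 235 ate 44% fat with the sexes near equal on each, and the metformin-treated animals were 57 females and 59 males on 10% fat and 59 females and 59 males on 44% fat. Each strain had 10 to 26 untreated and 7 to 13 treated animals. Animals were studied at 6 or 12 months of age, which no label states for a given mouse, and every treated mouse was in the older set, so metformin and age cannot be told apart.

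Libraries held 27.4 to 96.1 M counts (M for mega), with a median of 47.9 M. Sequencing identifiers fell into a lower and an upper range, with 400 and 69 untreated and 144 and 90 treated libraries. The range was a term in every main model. 19 libraries stood against their labels, 15 by the level of the X-inactivation transcript Xist and 4 by a profile closest to another strain, and results were repeated without them. Myh4, the main fast glycolytic myosin, had a median of 57040 CPM (counts scaled to a library total of 1 M) in untreated females and 61110 in untreated males, and all 10 fast fibre and all 10 slow fibre markers were measured. The summed CPM of 10 liver markers, with a median of 28.3 in untreated animals, reached 7657 in 1 library. Bulk RNA cannot separate fewer cells of a type from less RNA per cell.

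Insulin binds the insulin receptor, a tyrosine kinase, which phosphorylates the adaptor proteins Irs1 and Irs2. The adaptors recruit phosphoinositide 3-kinase, whose lipid product leads to activation of Akt2, and Akt2 phosphorylates Tbc1d1 and Tbc1d4, which then stop holding the glucose transporter GLUT4 inside the cell. Skeletal muscle takes up much of the glucose cleared after a meal by this route.

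The genes differed in abundance when counts were scaled per kilobase of exon. Median levels in untreated animals were 21.98 CPM per kb for Akt2, 10.5 for Tbc1d1, 7.39 for Irs1, 7.02 for Tbc1d4, 6.89 for Insr and 4.02 for Pik3r1. The other 4 were lower, at 3.42 for Irs2, 2.74 for Ptpn1, 2.50 for Grb14 and 1.95 for Trib1. Animals of the same strain, sex and diet varied most in Irs2, with a residual SD of 0.56 on the log2 CPM scale, wider than 97.3% of 10713 genes whose mean log2 CPM was 1 or more. Residual SDs were 0.43 for Irs1, 0.41 for Tbc1d1 and 0.36 for Trib1, against a median of 0.20 over those genes, and Akt2 had the smallest among the 10, at 0.15.

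**Figure D1:**
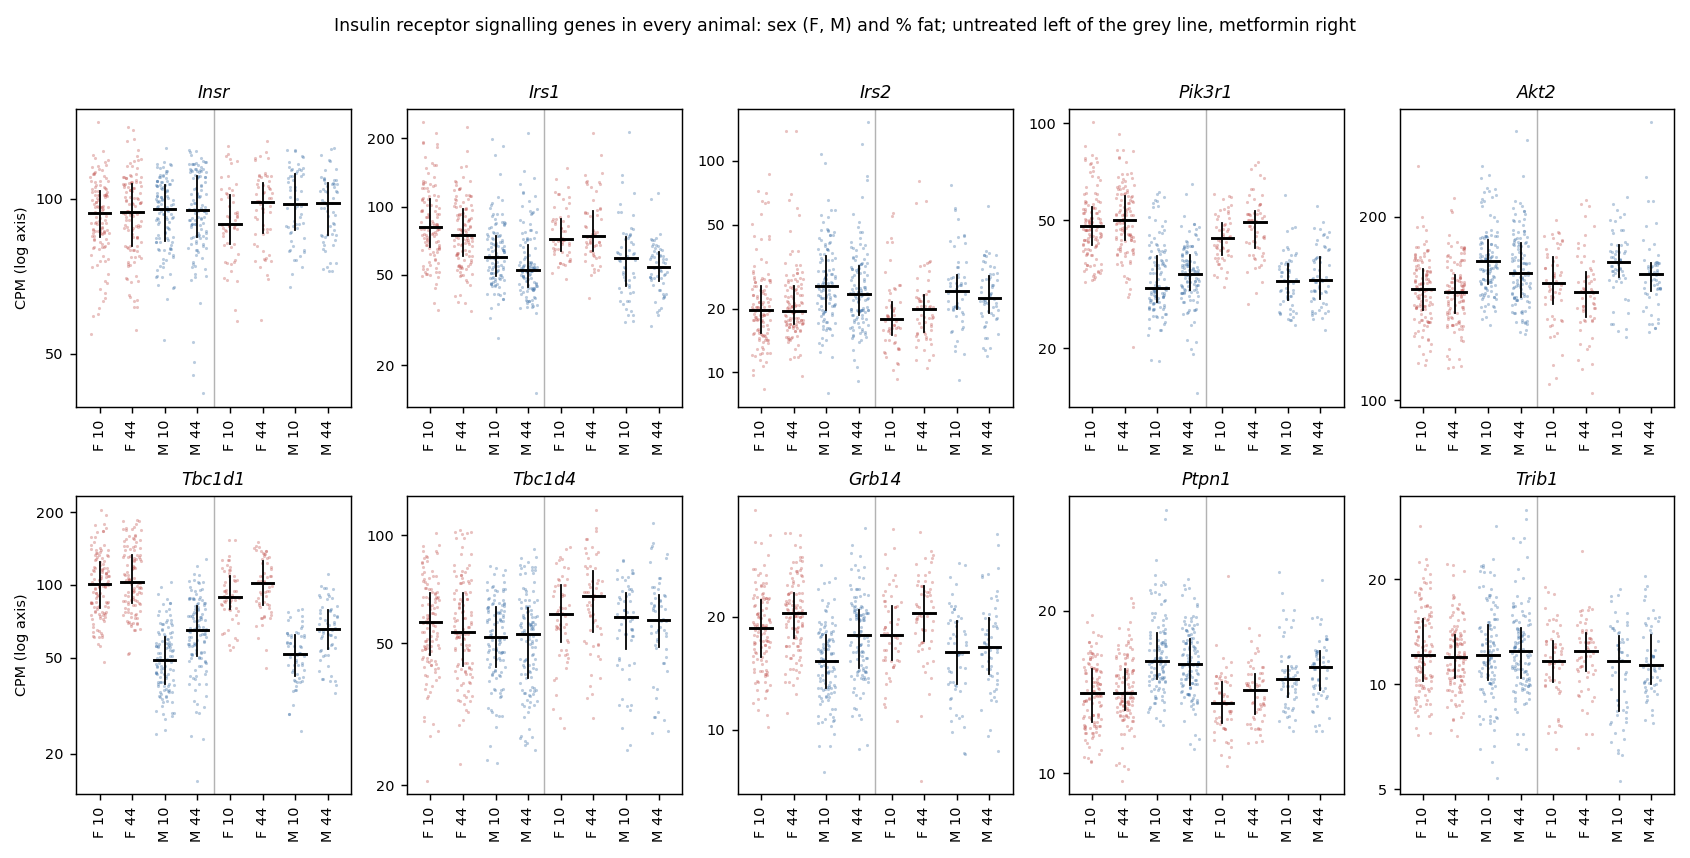
CPM of each gene in every animal on a log axis, by sex (F, M) and percent fat, with untreated animals left and metformin-treated animals right of the grey line. Horizontal bars are medians and vertical bars run from the lower to the upper quartile. Tbc1d1 and Pik3r1 lie lower in males in each diet and treatment, and the medians of Insr stay close together in all 8 groups.

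The 2 adaptors Irs1 and Irs2 lie on different chromosomes, Irs1 at chr1:82233101-82291416 and Irs2 at chr8:10984681-11008458, both on the minus strand of GRCm38. Within strain, sex and diet their levels had a positive correlation of r = 0.33 in untreated animals, and their promoters are shown because both hold the same 2 sequence motifs. The windows are from RefSeq on GRCm38.p6, run 5′ to 3′ from 250 bases before to 50 bases after the RefSeq start, and lie at chr1:82291390-82291689 and chr8:11008880-11009179, minus strand. The Irs1 window overlaps the gene interval given above, while the Irs2 window lies wholly upstream of its interval, so the 2 sources place the Irs2 start differently. Capitals mark CACGTG, the E-box core, and TGTTTTG.
Irs1: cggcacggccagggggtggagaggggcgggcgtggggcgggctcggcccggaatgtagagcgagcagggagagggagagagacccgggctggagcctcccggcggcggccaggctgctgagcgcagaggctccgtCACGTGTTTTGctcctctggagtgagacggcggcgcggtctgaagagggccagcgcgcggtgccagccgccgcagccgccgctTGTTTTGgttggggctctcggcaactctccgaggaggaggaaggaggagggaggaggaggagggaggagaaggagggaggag
Irs2: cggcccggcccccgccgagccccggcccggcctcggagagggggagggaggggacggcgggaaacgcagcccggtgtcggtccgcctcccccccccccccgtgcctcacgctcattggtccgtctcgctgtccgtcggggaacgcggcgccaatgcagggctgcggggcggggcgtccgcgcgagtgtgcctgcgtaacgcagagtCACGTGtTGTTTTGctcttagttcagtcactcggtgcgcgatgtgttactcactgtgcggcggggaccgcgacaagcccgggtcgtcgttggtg
Counted from 1 at the 5′ end of the window, the E-box of Irs1 began at base 136 and TGTTTTG at bases 140 and 219, the first of these overlapping the E-box. In Irs2 the E-box began at base 207 and TGTTTTG at base 214. Searched on both strands, CACGTG was in 7.15% and TGTTTTG in 6.28% of 32851 promoter windows of the same length, and both were in 0.408%. TGTTTAC and TGACGTCA, held by 3.65% and 1.79% of windows, were in no window of the 10 genes. The table listed 13 windows for 8 of the 10 genes, some with several starts, and those of the other 6 held none of the 4 motifs. Insr and Trib1 had no window in the table. A motif match describes letters only.

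The first question was how far levels followed strain. All 10 genes differed between strains in untreated animals (F test over 19 strain terms in edgeR's quasi-likelihood fit, adjusted p from 3.91e-74 for Tbc1d4 to 3.17e-14 for Ptpn1), as did 95.4% of the 16384 genes tested. Strain accounted for 54.9% of the variance of log2 CPM in Tbc1d4, 49.4% in Insr, 36.6% in Grb14 and 32.8% in Akt2 (omega squared, n = 469). The median over all genes tested was 15.4%, and the remaining 6 genes lay between 12.0% for Tbc1d1 and 20.3% for Irs2.

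Tbc1d4, the Rab GTPase-activating protein also called AS160, had strain means that differed 2.59-fold between the highest and the lowest strain in untreated animals. In the highest strain, (CC042/GeniUncJ x CC060/UncJ)F1, untreated animals lay between 69.8 and 103.6 CPM with a median of 81.7 and a mean of 82.6 ± 9.73 (SD, n = 22). In the lowest, (CC011/UncJ x CC005/TauUncJ)F1, they lay between 20.6 and 40.7 CPM with a median of 32.1 and a mean of 31.9 ± 4.50 (SD, n = 26). These 2 strains did not overlap. Metformin-treated animals of the same 2 strains were again the highest and the lowest, at 90.8 ± 13.3 (SD, n = 11) and 33.7 ± 2.23 CPM (SD, n = 12). The 6 crosses of CC042/GeniUncJ had means of 59.9 to 82.6 CPM and took 6 of the 7 highest places, while the 14 other strains had means of 31.9 to 66.7 CPM. No gap between neighbouring strain means in untreated animals exceeded the spread within strains, so the order between neighbours is not resolved.

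Insr, the receptor itself, was lowest in crosses of CC002/UncJ. Its mean was 69.95 ± 7.99 CPM in (CC030/GeniUncJ x CC002/UncJ)F1 (range 54.7 to 85.8, median 70.1, SD, n = 24) and 71.96 ± 7.50 in (CC002/UncJ x CC043/GeniUncJ)F1 (range 53.2 to 88.99, median 71.5, SD, n = 24). The next strain mean was 84.3 CPM, a gap larger than the spread within strains. At the top, (CC019/TauUncJ x CC075/UncJ)F1 had 111.6 ± 12.0 CPM (range 79.7 to 137.8, median 110, SD, n = 24). Highest and lowest strain overlapped in untreated animals. In treated animals the lowest was again (CC030/GeniUncJ x CC002/UncJ)F1, at 72.5 ± 7.43 CPM (SD, n = 13). The highest was another strain, (CC011/UncJ x CC005/TauUncJ)F1, at 115.1 ± 9.26 (SD, n = 12), and these 2 did not overlap. The gap was not repeated there: the largest, from 77.3 to 82.8 CPM, did not exceed the spread within strains. The 5 crosses of CC002/UncJ had means of 69.95 to 87.1 CPM and the other 15 strains 85.7 to 111.6, so the 2 sets overlapped slightly.

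Grb14, an adaptor that binds the active receptor and inhibits it, had its top mean, 29.8 ± 6.502 CPM, among (CC009/UncJ x CC013/GeniUncJ)F1 animals (range 17.8 to 38.7, median 32.03, SD, n = 10), a strain sequenced in the upper identifier range alone. The next strain had 23 CPM, a gap larger than the spread within strains. The lowest, (CC011/UncJ x CC005/TauUncJ)F1, had 14.4 ± 1.86 CPM (range 10.9 to 17.1, median 14.6, SD, n = 26), with no overlap. Metformin-treated (CC009/UncJ x CC013/GeniUncJ)F1 animals were again the highest, at 28.9 ± 4.16 CPM (SD, n = 12). Akt2, the kinase, had strain means from 130 to 191.3 CPM with overlapping animals.

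Irs2 differed from these genes in that single animals spread widely within some strains. Its highest strain mean was 43.7 ± 35.2 CPM in (CC024/GeniUncJ x CC002/UncJ)F1, where animals ran from 14.8 to 152.3 with a median of 27.3 (SD, n = 24). Its lowest was 17.6 ± 5.98 CPM in (CC004/TauUncJ x CC019/TauUncJ)F1, with animals from 8.34 to 32.6 and a median of 15.6 (SD, n = 26). Treated animals did not repeat this order: the highest mean was 43.2 ± 16.4 CPM in (CC011/UncJ x CC027/GeniUncJ)F1 (SD, n = 11). Across the 20 strains, log2 means of untreated and treated animals correlated with r = 0.96 for Insr, 0.93 for Tbc1d4, 0.92 for Grb14 and 0.91 for Akt2, and with r = 0.51 for Irs2 and 0.52 for Ptpn1. The points share strain, diet and processing but no animals.

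**Figure D2:**
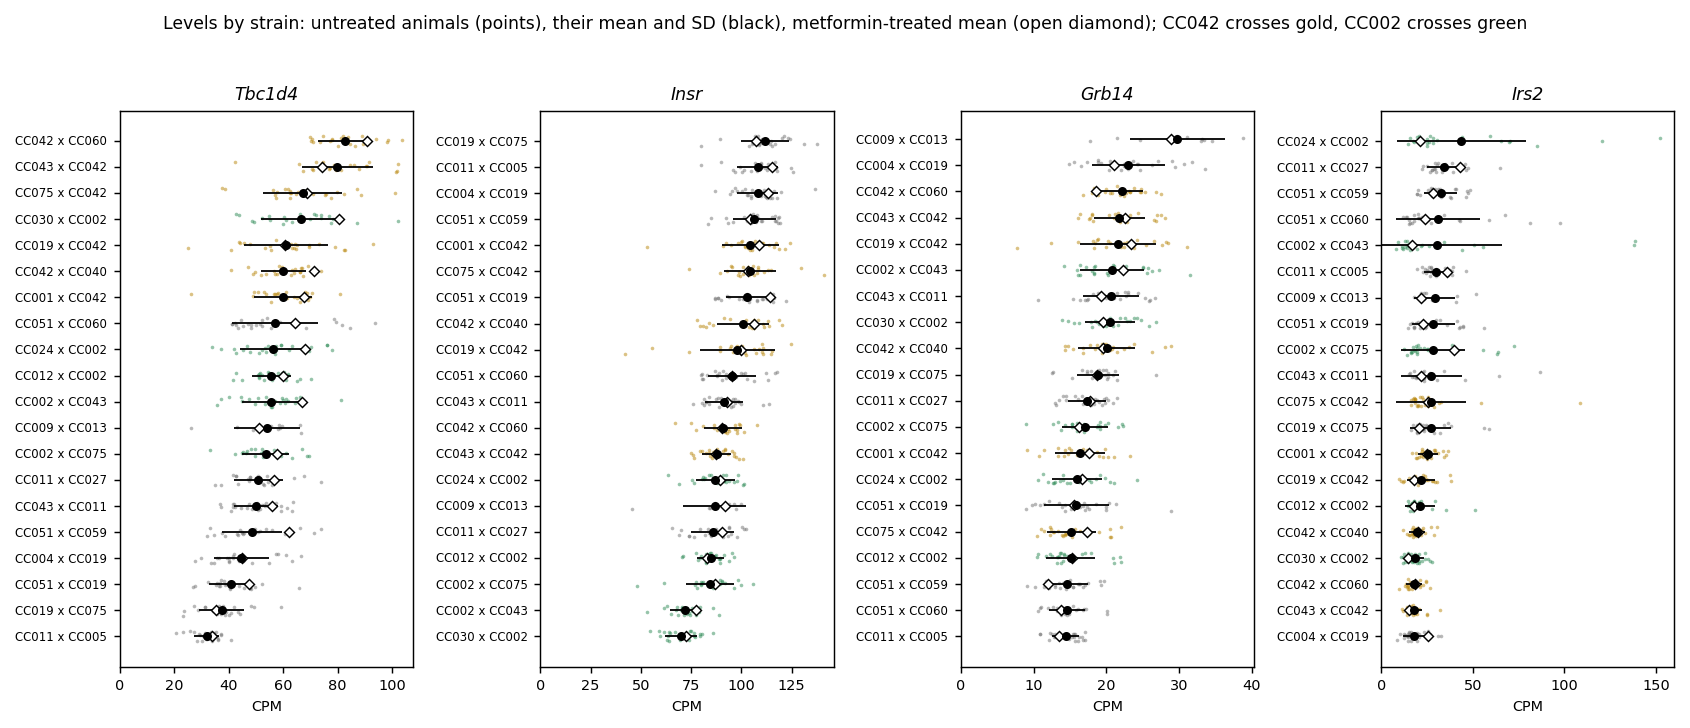
CPM of 4 genes in untreated animals of each strain (points), with the mean and SD (black) and the mean of metformin-treated animals (open diamonds). Strain names omit the line suffixes. Crosses of CC042 (gold) fill the upper end for Tbc1d4, crosses of CC002 (green) the lower end for Insr, and Irs2 shows single animals far above their strain.

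The second question was the effect of dietary fat. In untreated animals 3 of the 10 genes passed an adjusted p of 0.05, with Grb14 and Tbc1d1 higher and Irs1 lower on 44% fat, beside 20.3% of all genes tested (10.1% higher and 10.1% lower). The median log2 fold change was -0.01 over the 10 genes and -0.003 over all genes.

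Grb14 ran from 7.69 to 38.7 CPM with a median of 16.9 on 10% fat (n = 234) and from 8.89 to 34.6 with a median of 19.7 on 44% fat (n = 235). The diets overlapped widely, and the fitted log2 fold change was 0.19 ± 0.02 (SE, edgeR, adjusted p = 2.97e-13), a rise of 13.7%. The difference within strains was positive in 20 of 20 strains, from 0.03 to 0.35 on the log2 scale. Treated animals, which share none with that comparison, also showed a rise of 0.11 ± 0.03 (SE, edgeR, adjusted p = 0.0132), positive in 17 of 20 strains. In the treated animals of the upper identifier range alone the log2 fold change was 0.02 (adjusted p = 0.916), against 0.16 in the lower range (adjusted p = 0.00806).

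Tbc1d1, the second Rab GTPase-activating protein, ran from 24.1 to 205.1 CPM with a median of 71.9 on 10% fat and from 15.5 to 185.3 with a median of 83.2 on 44% fat in untreated animals. Its log2 fold change was 0.22 ± 0.04 (SE, edgeR, adjusted p = 6.92e-07), positive in 18 of 20 strains. In treated animals the log2 fold change was 0.24 ± 0.05 (SE, edgeR, adjusted p = 2.17e-05), positive in 17 of 20 strains. The 2 sexes differed in this response: the simple difference of log2 means in untreated animals was 0.34 ± 0.06 in males (SE, 233 animals) and 0.07 ± 0.06 in females (SE, 236 animals). In the upper identifier range alone (69 untreated libraries) no gene of the 10 passed on the diet contrast in edgeR. There 4 had an unadjusted p under 0.05, beside 12.9% of all genes, with Grb14 at 0.20 (adjusted p = 0.0547) and Tbc1d1 at 0.27 (adjusted p = 0.211). The interaction of diet and sex was 0.29 ± 0.07 (SE, log2, edgeR, adjusted p = 0.0221), the only one called among the 10 genes, beside 0.568% of all genes. It had an adjusted p of 0.0725 by limma voom, 0.0797 in the lower range alone and 0.066 without the 19 libraries against their labels, with log2 values of 0.27 to 0.29.

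Irs1, the first of the 2 receptor adaptors, ran from 26.4 to 234.7 CPM with a median of 70.2 on 10% fat and from 15 to 223.7 with a median of 61.6 on 44% fat. It fell by 0.15 ± 0.04 on the log2 scale (SE, edgeR, adjusted p = 0.00327), with lower values in 13 of 20 strains. In treated animals the log2 difference was -0.05 ± 0.05 (SE, edgeR, adjusted p = 0.583). The metformin by diet interaction for Irs1 was 0.09 ± 0.07 (SE, edgeR, adjusted p = 0.707), so a difference between the 2 sets was not shown.

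The other 7 genes did not pass in untreated animals. Their log2 fold changes lay between -0.03 for Akt2 (adjusted p = 0.0971, edgeR) and 0.04 for Pik3r1, the regulatory subunit of phosphoinositide 3-kinase (adjusted p = 0.333). The 95% interval for Insr was -0.01 to 0.05. In treated animals 2 of the 10 genes, Grb14 and Tbc1d1, passed, both higher, beside 12.1% of all genes (5.27% higher and 6.79% lower). The summed CPM of 10 adipocyte markers had a median of 431.9 on 10% fat (range 231 to 1333) and 500.2 on 44% fat (range 214 to 1833) in untreated animals, and 8 of the 10 markers were higher and 2 lower. Adipoq, 1 of the 10, had medians of only 13.4 and 14.6 CPM, so the sum was mostly other genes of the list. How far the sum follows fat cells was not tested. Other markers also moved with diet in untreated animals. On 44% fat 4 of 10 slow fibre markers, 1 of 2 genes listed as fast oxidative (Myh2 at 0.14, log2) and 5 of 8 endothelial markers were higher. Lower were 4 of 10 fast glycolytic markers. The part of these markers in the diet differences was not tested. Without those of the 70 libraries of the series with the highest adipocyte sum, Grb14, Tbc1d1 and Irs1 were still called and Akt2 became so, at -0.04 (adjusted p = 0.0184).

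**Figure D3:**
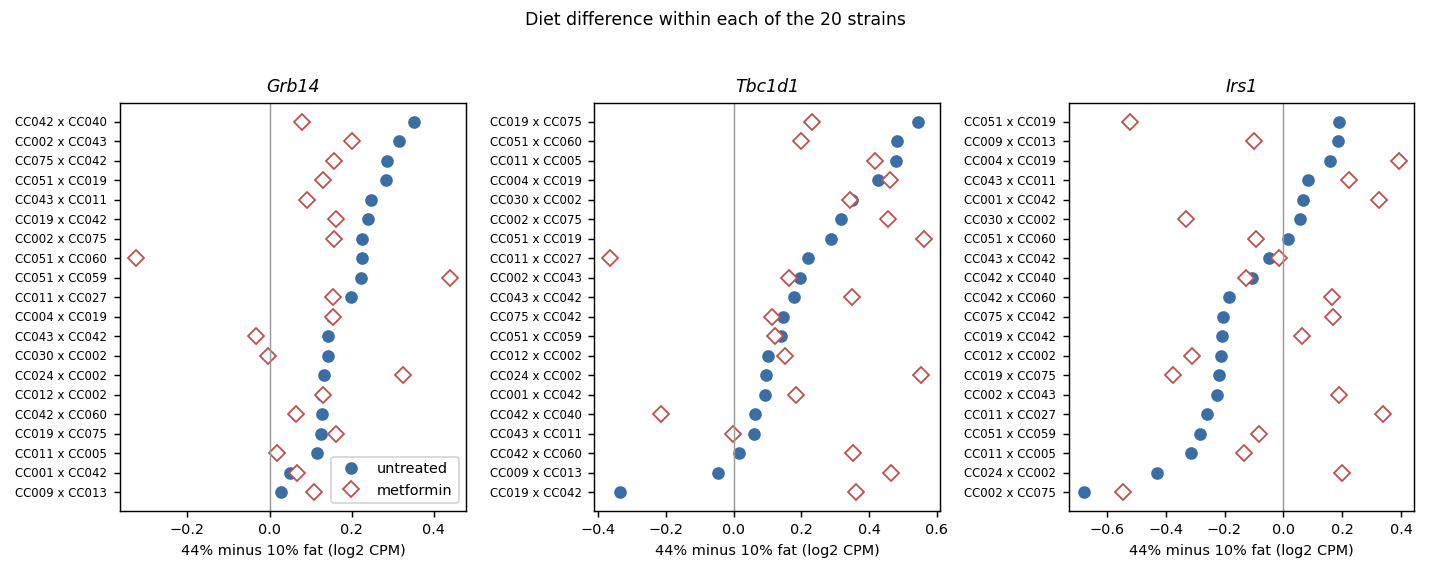
Difference between 44% and 10% fat in log2 CPM within each strain, for untreated (filled circles) and metformin-treated animals (open diamonds), strains ordered by the untreated value. Grb14 lies above 0 in all 20 strains of untreated animals, Tbc1d1 in 18, and Irs1 lies below 0 in 13.

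The other genes of the pathway were taken from 6 lists. All of them but 1, Irs4, were measured, and 33 (31.1% of those measured, beside 20.3% of all genes) passed in untreated animals on the diet contrast, 19 higher and 14 lower. Among the listed genes that rose most on 44% fat were Ddit4, an inhibitor of mTOR, by 0.35 ± 0.12 (SE, log2, edgeR, adjusted p = 0.0238), and Fbxo32, a ubiquitin ligase of muscle atrophy, by 0.16 ± 0.04 (adjusted p = 9.60e-04). Those that fell most were Srebf1, the lipogenic transcription factor, at -0.20 ± 0.04 (adjusted p = 1.99e-06), Gadd45a, a stress-response gene, at -0.15 ± 0.03 (adjusted p = 3.91e-04), and the kinase gene Sgk1 at -0.14 ± 0.04 (adjusted p = 0.00295, edgeR). By group, 3 of 10 measured receptors and adaptors, 1 of 12 phosphoinositide 3-kinase subunits and lipid phosphatases, 7 of 18 protein kinases, 8 of 26 inhibitors, 6 of 18 GLUT4 traffic genes and 8 of 22 downstream targets passed. In treated animals 22 of them (20.75%, beside 12.1% of all genes) passed, 13 higher and 9 lower, with Srebf1 again among the 3 that fell most, at -0.29 ± 0.05 (SE, log2, edgeR, adjusted p = 7.85e-07).

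Sex was the largest contrast for several of the 10 genes. In untreated animals 8 of the 10 differed, 5 lower and 3 higher in males, beside 67.1% of all genes (37% lower and 30.1% higher). The median log2 difference, male minus female, was -0.06 over the 10 genes and -0.02 over all genes.

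Tbc1d1 ran from 48.1 to 205.1 CPM with a median of 102.6 in females (n = 236) and from 15.5 to 127.4 with a median of 56.6 in males (n = 233). The log2 difference was -0.88 ± 0.04 (SE, edgeR, adjusted p = 4.67e-77), negative in 20 of 20 strains, from -1.51 to -0.50. Sex accounted for 46.4% of its variance, more than in 99.35% of genes tested. Pik3r1 ran from 20.2 to 100.8 CPM with a median of 49.1 in females and from 14.5 to 64.95 with a median of 33.2 in males. It differed by -0.55 ± 0.03 (SE, log2, edgeR, adjusted p = 8.91e-60), negative in 20 of 20 strains, and sex held 38.5% of its variance. In both genes the male and female ranges overlapped while the medians lay far apart. Libraries whose Xist stood against their sex label, 15 in the series, were not left out of these ranges.

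Irs1 was lower in males by a log2 difference of -0.44 ± 0.04 (SE, edgeR, adjusted p = 5.00e-23), in 19 of 20 strains, with medians of 78.9 CPM in females (range 34.5 to 234.7) and 54.7 in males (range 15 to 211.8). Irs2 moved the other way, at 0.27 ± 0.06 (SE, edgeR, adjusted p = 6.81e-06), in 17 of 20 strains, with medians of 19.7 CPM in females (range 8.34 to 138.5) and 24.4 in males (range 7.92 to 152.3). The 2 adaptors therefore had opposite signs in the sex contrast. Grb14 and Tbc1d4 were lower in males, at -0.23 ± 0.02 (adjusted p = 1.89e-20) and -0.13 ± 0.03 (adjusted p = 1.30e-06, edgeR), in 19 and 16 of 20 strains. Ptpn1, the tyrosine phosphatase that dephosphorylates the receptor, was higher in males in 20 of 20 strains, at 0.21 ± 0.02 (SE, edgeR, adjusted p = 1.91e-26), with medians of 14.1 CPM in females (range 9.70 to 21.1) and 16.1 in males (range 11.1 to 30.8). Akt2 was higher in males in 19 of 20 strains, at 0.15 ± 0.01 (SE, edgeR, adjusted p = 9.51e-24).

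Insr and Trib1, a pseudokinase that can bind Akt, did not pass, with differences of 0.02 ± 0.02 (adjusted p = 0.407) and 0.03 ± 0.03 (adjusted p = 0.484, edgeR). In the upper identifier range alone Grb14 had a sex difference of -0.14 with an adjusted p of 0.0598. Slow fibre markers moved with sex: their summed CPM had a median of 2409 in females (range 1357 to 4769) and 1599 in males (range 573 to 2870), and all 10 were lower in males. Both genes of the list called fast oxidative were lower in males as well, Myh2 at -0.25 and Myh1 at -0.17 on the log2 scale. Of 10 fast glycolytic fibre markers 8 were higher and 2 lower. The fast oxidative sum had a median of 6554 CPM in untreated animals and Myh2 alone 2290, so the sum was mostly Myh1. How far this sum follows oxidative fibres was not tested. Of 10 adipocyte markers 9 were lower in males and 1 higher, and of 8 endothelial markers 4 were higher and 1 lower. Their part in the sex differences was not tested. Within strain, sex and diet, Tbc1d1 correlated with the fast oxidative sum at r = 0.36, the slow fibre sum at 0.19, the endothelial sum at 0.16 and the adipocyte sum at -0.01 (n = 469 animals that share depth and composition). Pik3r1 correlated with the adipocyte sum at r = 0.38, the endothelial sum at 0.33, the fast oxidative sum at 0.27 and the slow fibre sum at 0.13. Among the other pathway genes measured 82 (77.4%, beside 67.1% of all genes) differed by sex, 45 higher and 37 lower in males. The largest rises in males were those of Prkcd, a protein kinase C, at 0.84 ± 0.04 (adjusted p = 8.38e-66), Srebf1 at 0.58 ± 0.04 (adjusted p = 4.84e-45) and Ddit4 at 0.44 ± 0.12 (adjusted p = 8.56e-04, edgeR). The largest falls were those of Sesn1, a stress-induced inhibitor of mTOR, at -0.67 ± 0.02 (adjusted p = 2.76e-104), Grb10, the closest relative of Grb14, at -0.56 ± 0.02 (adjusted p = 6.87e-91), and Enpp1, which inhibits the receptor, at -0.46 ± 0.03 (SE, log2, edgeR, adjusted p = 1.69e-48).

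**Figure D4:**
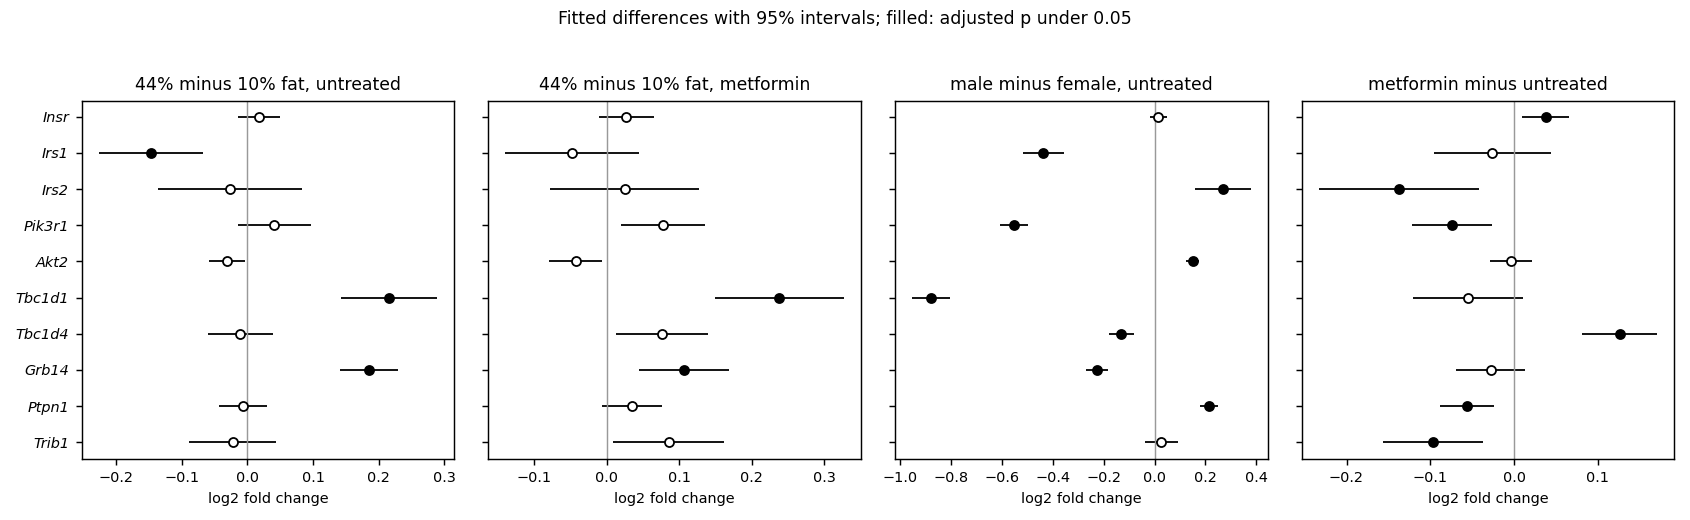
Fitted log2 fold changes of the 10 genes with 95% intervals in 4 contrasts, each panel with its own axis. Filled points passed an adjusted p of 0.05. The largest difference is that of Tbc1d1 between the sexes, and the metformin differences are all under 0.14 in size.

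Metformin-treated and untreated animals were compared with strain, sex, diet and identifier range in the model. Among the 10 genes 6 passed, Tbc1d4 and Insr higher and Irs2, Pik3r1, Ptpn1 and Trib1 lower, beside 19.4% of all genes (8.34% higher and 11% lower). Tbc1d4 ran from 20.6 to 103.6 CPM with a median of 53.9 in untreated animals and from 25.1 to 118.1 with a median of 60.5 in treated ones. Its log2 difference was 0.13 ± 0.02 (SE, edgeR, adjusted p = 4.11e-06), positive in 16 of 20 strains. The others were small, at -0.14 ± 0.05 for Irs2 (adjusted p = 0.031), -0.10 ± 0.03 for Trib1 (adjusted p = 0.0131), -0.07 ± 0.02 for Pik3r1 (adjusted p = 0.0176), -0.06 ± 0.02 for Ptpn1 (adjusted p = 0.00702) and 0.04 ± 0.01 for Insr (SE, edgeR, adjusted p = 0.0436).

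These calls differed between the identifier ranges. In the lower range alone 5 of the 6 were called, with Tbc1d4 at 0.19 (adjusted p = 2.06e-09) and Irs2 at -0.13 not called (adjusted p = 0.114). In the upper range alone, with 159 libraries, no gene of the 10 was called by edgeR, Tbc1d4 had a log2 difference of 0.002 (adjusted p = 0.995), and Pik3r1 and Trib1 had the opposite sign, at 0.04 and 0.05. There 2 genes, Irs1 and Grb14, had an unadjusted p under 0.05, beside 6.56% of all genes. The difference between the ranges was not tested. By limma voom 4 of the 6 were called, without Irs2 at -0.07 (adjusted p = 0.27) and Pik3r1 at -0.06 (adjusted p = 0.0627). Without the 19 libraries against their labels 4 were called in edgeR, without Insr (adjusted p = 0.0557) and Irs2 (adjusted p = 0.0552). Without the 70 libraries with the highest adipocyte sum 3 of the 6 remained called, Tbc1d4, Ptpn1 and Trib1. The adipocyte sum had a median of 465.6 CPM in untreated (range 214 to 1833) and 431.7 in treated animals (range 247 to 2464). Adipoq alone had medians of 14.05 and 13.01 CPM. The part of these markers in the metformin differences was not tested. No gene of the 10 had a called interaction of metformin with diet or with sex in edgeR, beside 0.0902% and 3.12% of all genes. At an unadjusted p under 0.05 these were 1 gene, Tbc1d4, beside 9.07% of all genes, and 2 genes, Tbc1d1 and Ptpn1, beside 20.01%. Limma voom also called none. Of the other pathway genes measured 26 (24.5%, beside 19.4% of all genes) passed, 12 higher and 14 lower, led by Ddit4 at -0.78 ± 0.11 (adjusted p = 4.41e-09), Foxo1, a transcription factor that Akt excludes from the nucleus, at -0.22 ± 0.05 (adjusted p = 6.08e-04) and Sgk1 at -0.18 ± 0.04 (adjusted p = 4.73e-05) among those lower. Prkcz at 0.15 ± 0.03 (adjusted p = 2.59e-05), Gadd45a at 0.12 ± 0.04 (adjusted p = 0.0189) and Fbxo32 at 0.10 ± 0.04 (SE, log2, edgeR, adjusted p = 0.0432) were highest among those higher.

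Diet acted differently between strains on 2 of the 10 genes, Trib1 (F test over 19 terms, edgeR, adjusted p = 1.16e-06) and Irs2 (adjusted p = 4.01e-04), beside 4.13% of all genes. The Trib1 difference within strains ran from -0.40 in (CC002/UncJ x CC075/UncJ)F1 to 0.92 in (CC009/UncJ x CC013/GeniUncJ)F1 on the log2 scale, and that of Irs2 from -0.62 to 0.62 in the same 2 strains. The untreated (CC009/UncJ x CC013/GeniUncJ)F1 animals were only 10, all in the upper identifier range. Their highest Trib1 values were 29.8 and 26.3 CPM, beside a median of 12.95. Grb14, with a rise in every strain, had an adjusted p of 0.903 in this test. Metformin differences varied between strains for 5 of the 10, Irs2 (adjusted p = 2.68e-07), Ptpn1 (0.00276), Tbc1d1 (0.0391), Trib1 (0.0429) and Tbc1d4 (0.0461), beside 11.6% of all genes. The Irs2 difference was lowest in (CC024/GeniUncJ x CC002/UncJ)F1, at -0.75, and highest in (CC004/TauUncJ x CC019/TauUncJ)F1, at 0.55. By limma voom 1 gene had a called diet by strain interaction, Trib1, and 2 had a called metformin by strain interaction, Irs2 and Ptpn1. In the lower identifier range alone 2 of the 10 were called for metformin by strain in edgeR. There 5 had an unadjusted p under 0.05, beside 22.05% of all genes. In (CC019/TauUncJ x CC042/GeniUncJ)F1, for example, the 12 treated animals were all in the upper range, and untreated ones were 13 lower and 11 upper. The range term was shared by all strains, so metformin and range differences within a strain cannot be fully told apart.

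The levels of the 10 genes were also compared with each other within strain, sex and diet in the 469 untreated animals. Over the 45 pairs the median r was 0.04, from -0.43 to 0.41, and 3 pairs (6.67%) lay above 0.3 and 2 below -0.3. Among 83845 pairs of every 40th gene tested the median was -0.004, 2851 (3.40%) lay above 0.3 and 1858 below -0.3. Pik3r1 and Tbc1d1 had r = 0.41, Insr and Tbc1d4 r = 0.40, Irs1 and Irs2 r = 0.33, Pik3r1 and Grb14 r = -0.35, and Insr and Akt2 r = -0.43. The rank correlations were 0.39, 0.28, 0.23, -0.34 and -0.31. In the 234 treated animals the same pairs had r of 0.16, 0.25, 0.37, -0.18 and -0.38. Insr, Tbc1d4 and Akt2 also correlated with the fast oxidative sum, which was mostly Myh1, at r = 0.53, 0.37 and -0.42. The part of this sum in these pairs was not tested. Untreated animals could be of either age while treated animals were all of the older set, so age was not held fixed in the untreated residuals. Animals share depth and composition, so these values are descriptions.

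**Figure D5:**
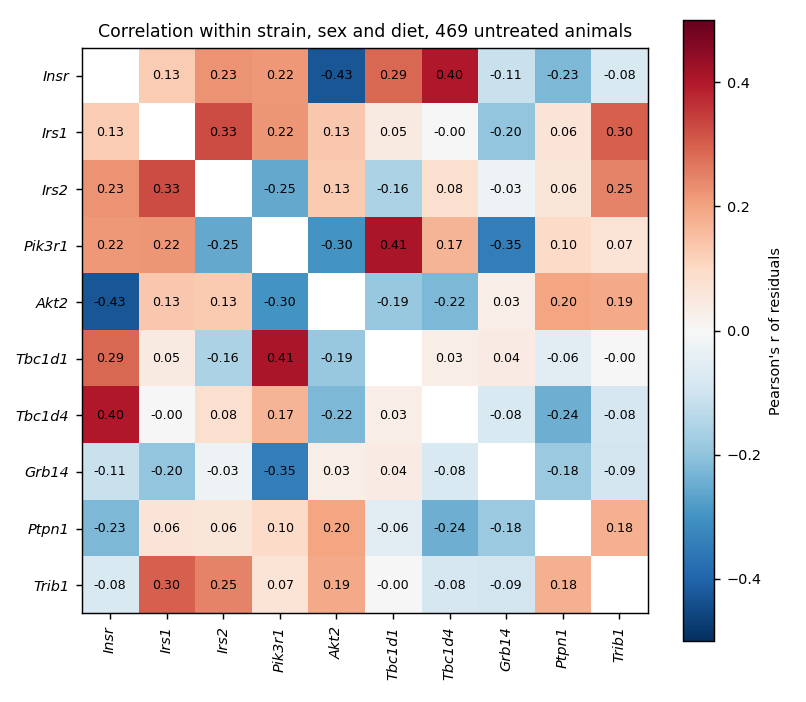
Pearson's r between residuals of log2 CPM for each pair of the 10 genes in 469 untreated animals, after strain, sex, diet and identifier range. Red is positive and blue negative. The highest value is that of Pik3r1 and Tbc1d1, 0.41, and the lowest that of Insr and Akt2, -0.43.

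The genes most like each of the 10 were sought with the same residuals. The search covered 10125 genes whose mean log2 CPM was 1 or more, leaving out clone and predicted-gene names and mitochondrially encoded genes. Among these, Insr was most like Gsk3b (r = 0.83), the kinase that restrains glycogen synthase. Akt2 was most like Adipor1 (r = 0.82), an adiponectin receptor, and Agpat1 (r = 0.80), an enzyme of phospholipid synthesis. Pik3r1 was most like Sptbn1 (0.65) and Adgrf5 (0.63), Irs2 like Fosl2 (0.65) and Impact (0.63), Trib1 like Ier5 (0.58) and Otud1 (0.53), and Irs1 like Rock2 (0.55) and Zfp568 (0.54). Tbc1d4 was most like Nnt (0.52) and Epg5 (0.51), Grb14 like Fxyd6 (0.51) and Adck3 (0.50), Tbc1d1 like Jup (0.48) and Rbm20 (0.47), and Ptpn1 like Slc25a5 and Phc2 (both 0.43). In the 234 treated animals, the r of each of these pairs was positive, from 0.21 for Tbc1d4 and Epg5 to 0.69 for Insr and Gsk3b.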

How the data were processed

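Gastrocnemius RNA was sequenced as poly(A) libraries (KAPA mRNA HyperPrep, paired reads) in 703 mice. The authors aligned both reads of a pair as single reads to the transcriptomes of the founder strains and deposited estimated counts per gene from EMASE within GBRS (GRCm38 per the submitters' processing notes), leaving out genes with few reads. They also deposited a score table, counts variance-stabilised with DESeq2 and adjusted for batch. It was used only in alternatives, for descriptions and for the diet, sex, strain and metformin contrasts. Reads shared by near-identical genes are divided by the estimate.

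The estimated counts were deposited as whole numbers. They were filtered with filterByExpr (17740 genes in all animals, 16384 in untreated ones) and scaled by TMM. Tests used edgeR 4.0.16 in R 4.3.3 (quasi-likelihood test, Benjamini-Hochberg adjustment over all genes tested, threshold 0.05), with strain, sex, diet and identifier range in the model. Levels are CPM, and log2 CPM used a prior count of 2. Total counts of 27.4 to 96.1 M (mega) limit precision less than the spread between animals. The code was tested on simulated data. The strain share is omega squared, and correlations used residuals after strain, sex, diet and range. The identifier range is only a range of numbers in the sample labels, and no source used here says what it stands for. Groups came from the labels.

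The 10 genes and all lists were chosen with earlier results of these data known. Beyond the 10, the text names up to 3 genes that rose and 3 that fell most per comparison among the listed pathway genes that passed and whose mean log2 CPM was 1 or more, the 2 genes most correlated with each of the 10, and 4 promoter motifs. Some genes that this rule selects are not reported here. Alternatives were limma voom 3.58.1, limma on the score table, DESeq2 1.42.0 and its size factors, no filter on low counts and no range term. Others were each range alone, and leaving out libraries against their labels or with high adipocyte or liver sums.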

Additional observations from a re-analysis of the deposited data

Results flagged for a closer look

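Dixon's test was applied to the strain groups of at most 10 animals, 10 untreated (CC009/UncJ x CC013/GeniUncJ)F1 animals and 7 treated (CC004/TauUncJ x CC019/TauUncJ)F1 animals, and in the first of them 3 values stood apart from the rest. Insr was 45.5 CPM in 1 animal, where the next was 83.9 and the median 90.03. Akt2 was 276.8 CPM in the same animal, a male on 44% fat with 91.9 M counts, where the next was 178.1 and the median 151.2. Irs1 was 98.2 CPM in another animal, a female on 44% fat with 27.4 M counts, where the next was 63.9 and the median 51. Neither library stood against its labels. Of 40 values in 20 groups of gene and strain 3 were past the limit. The nominal rate of about 1 in 20 groups cannot be set against this. The groups pooled sexes and diets, the same animals recur for each gene, and 2 of the 3 values came from 1 library.

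Tests of the difference itself found that the response of Tbc1d1 to diet differed between the sexes (edgeR, adjusted p = 0.0221) and that responses to diet differed between strains for Irs2 (adjusted p = 4.01e-04) and Trib1 (adjusted p = 1.16e-06). Metformin differences varied between strains for Irs2 (adjusted p = 2.68e-07), Ptpn1 (adjusted p = 0.00276), Tbc1d1 (adjusted p = 0.0391), Trib1 (adjusted p = 0.0429) and Tbc1d4 (adjusted p = 0.0461, edgeR).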

How the results depend on the processing

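Of the counts and summaries under each alternative, 68 stayed within the limits set for them and 12 moved. In the upper identifier range alone, with fewer libraries, 0 of the 10 genes passed for diet in untreated animals, 1 for diet in treated animals and 0 for metformin (edgeR). There 4, 4 and 2 had an unadjusted p under 0.05, beside 12.9%, 17.1% and 6.56% of all genes. The metformin differences of Pik3r1 and Trib1 turned to 0.0443 and 0.0485 in that range. In the lower range alone 0 passed for diet by sex and 2 for metformin by strain. By limma voom 0 passed for diet by sex, 1 for diet by strain and 2 for metformin by strain. Without libraries against their labels 0 passed for diet by sex, where Tbc1d1, Grb14 and Ptpn1 had an unadjusted p under 0.05, beside 9.04% of all genes. Without high liver libraries 4 passed for diet in treated animals, and without high adipocyte libraries 3 passed for metformin. The median strain share over the 10 genes was 36.45% in treated against 19.65% in untreated animals, and 17.7% against 15.4% over all genes. The cause of these shifts was not tested. Among values of single genes, 729 were counted as unchanged, 33 lost the call, 5 gained it, 2 reversed and 1 moved. A change of sign was counted as reversed only where the gene was called in either fit. Uncalled values could therefore change sign and still count as unchanged. The diet difference of Irs2 in untreated animals, for example, ran from -0.07 to 0.12 over the settings. No paired analysis was possible because every label gives the same replicate number.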
